A study of Mus musculus with 143 samples.

Results

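Single mouse oocytes lacking both DIS3 and EXOSC10 were compared with oocytes lacking EXOSC10 alone, to read out what loss of DIS3 adds when EXOSC10 is already absent. The members are the 16 rRNA-depleted (RiboMinus) libraries of postnatal day 20 (p20) oocytes with the genotype labels dcKO (8) and Exosc10 cKO (8), out of 143 samples in the series. A second set of 16 p20 libraries, 8 labelled control and 8 labelled Dis3 cKO, gave the effect of losing DIS3 with EXOSC10 present. Each library comes from 1 oocyte, synthetic ERCC RNAs were added to it, and reverse transcription was primed with random hexamers, per the labels. The mutant mice were made with CRISPR/Cas9, per the labels; the labels name no Cre driver, strain or number of females, so p-values measure the spread between oocytes. Oocyte titles carry a first number, 1 or 2, with 4 oocytes each, called the tag here; what it stands for is not given.

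The RNA exosome is a barrel of core subunits that carries RNA to its ribonucleases. DIS3 is a processive ribonuclease held at the exit of the barrel in the nucleus, and EXOSC10 is a distributive ribonuclease at its entrance that is known for trimming rRNA, snoRNA and other nuclear RNA. At p20 the mouse ovary holds growing oocytes that transcribe and store the maternal RNA later used in the egg and the early embryo.

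Both targeted genes followed the labels. Dis3 ranged from 11.4 to 22.8 CPM (gene counts scaled to library size with TMM factors; median 16.0) in Exosc10 cKO and from 1.73 to 4.34 (median 2.72) in dcKO, without overlap. The log2 fold change was -2.53 (SE 0.25, edgeR quasi-likelihood test with Benjamini-Hochberg adjustment, adjusted p 1.1e-09). Exosc10 was low in both, with a median of 1.95 CPM (0.352 to 10.6) in Exosc10 cKO and 4.92 (3.14 to 14.8) in dcKO, where controls averaged 118. Its log2 difference of 1.21 (SE 0.38, edgeR adjusted p 0.0088) was 0.39 (adjusted p 0.49) without the tag 2 dcKO oocytes, which averaged 10.5 CPM against 4.25 in tag 1. Dis3 overlaps Pibf1 in the annotation, and no source used here says whether reads were counted by strand.

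Loss of DIS3 on top of EXOSC10 changed 7809 of 15882 genes tested, 49.2% of them, at an edgeR adjusted p under 0.05. Of these 3838 (24.2% of genes tested) were higher and 3971 (25.0%) were lower in dcKO, and at a fold of at least 2 there were 2034 higher and 1455 lower. Loss of DIS3 alone, Dis3 cKO against control, changed 1171 genes (7.37%). With counts summed per tag 5559 genes differed between dcKO and Exosc10 cKO, and 286 between Dis3 cKO and control. Between dcKO and Exosc10 cKO, the 8 and 8 libraries did not overlap for 1993 genes (12.5%), 1038 higher and 955 lower. Against all 24 other p20 libraries, every dcKO library was higher for 526 genes and lower for 481.

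Library facts bear on these counts. Summed gene counts were 8492102 to 14246463 in dcKO libraries, 9566019 to 15335017 in Dis3 cKO, 16252900 to 23801344 in Exosc10 cKO and 16043788 to 19702270 in control, so depth moved with the Dis3 genotype. After all libraries were thinned to equal depth 7499 genes differed. The tags separated the dcKO oocytes, with 1596 genes (10.0%) differing between tags 1 and 2, against 62 in Exosc10 cKO and 46 in control. In Dis3 cKO 0 genes differed by edgeR, and 482 had an unadjusted p under 0.05. Among the genes that differed both between dcKO tags and between dcKO and Exosc10 cKO, tag 1 lay further from Exosc10 cKO for 1059 of 1115. Within tag 1, 6501 genes differed between dcKO and Exosc10 cKO, and within tag 2 5137. The same 2381 genes passed the threshold in all 4 pairings of dcKO and Exosc10 cKO tags.

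**Figure D1:**
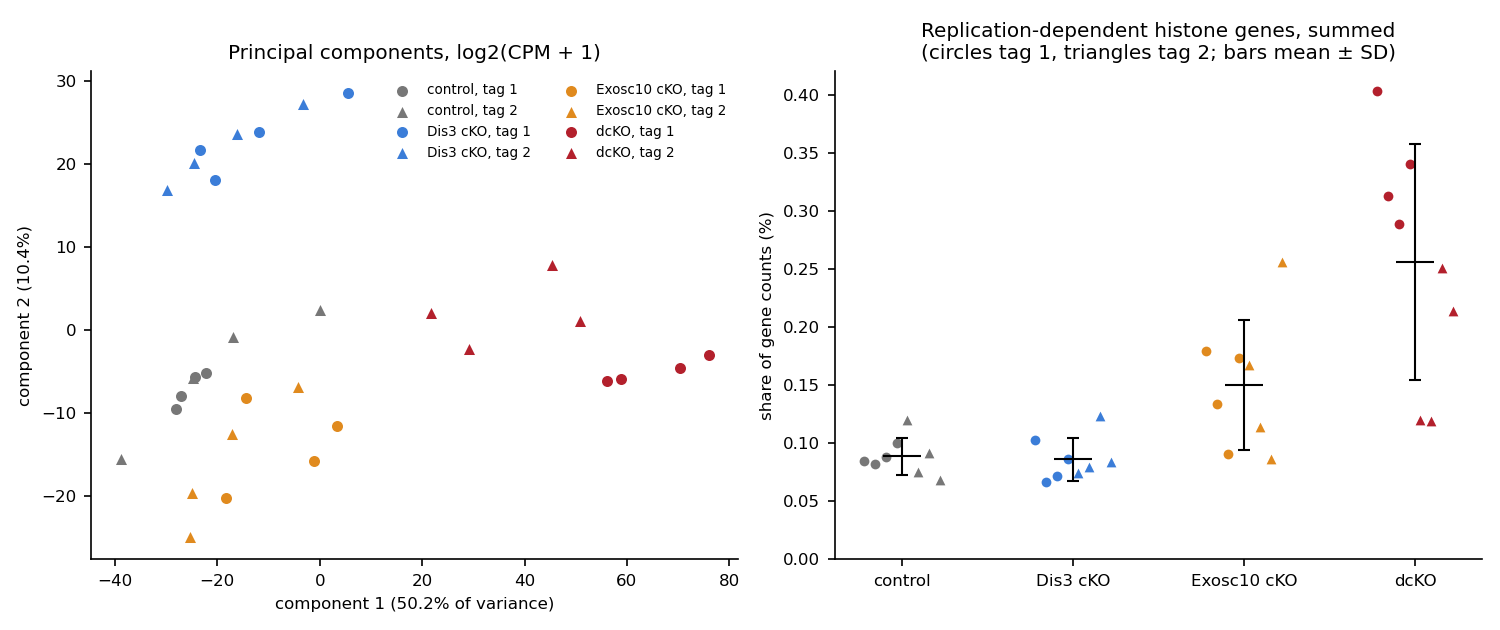
Left, the first and second principal components of log2(CPM + 1) over the 32 p20 libraries, coloured by genotype, with circles for tag 1 and triangles for tag 2; component 1 holds 50.2% of the variance. The 8 dcKO libraries lie at 21.77 to 75.98 on component 1 and the 24 others at or below 5.46. Right, the percent of gene counts from replication-dependent histone genes in each library, with mean ± SD bars (n = 8); tag 1 dcKO libraries are highest.

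Defining oocyte genes marked all libraries. The 12 oocyte markers summed to 13498 to 14843 CPM in Exosc10 cKO and 16001 to 19527 in dcKO, on gene counts alone. The 12 granulosa cell markers summed to 322 to 385 CPM in Exosc10 cKO and 295 to 374 in dcKO, most of it from Serpine2 and Nr5a2, and Gatm, Foxl2, Fst and Hsd17b1 averaged under 1 CPM in both. Members of this list went either way. Cyp19a1 (aromatase) averaged 23.8 CPM in Exosc10 cKO and 4.97 in dcKO. Serpine2 (188 and 171) and Kitl (28.5 and 23.6) were also lower in dcKO, and Nr5a2 (97.7 and 130) and Fshr (1.63 and 4.01) were higher. Theca and stromal markers (9 genes) summed to at most 5.38 CPM in either. Blood and endothelial markers (8 genes) summed to 66.8 to 115 CPM in Exosc10 cKO and 26.4 to 46.2 in dcKO, nearly all from Pecam1, with the 4 haemoglobin genes and Lyz2 at 0. The part of other cells in the results was not tested.

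Abundant oocyte RNAs moved in both directions. Padi6, a peptidylarginine deiminase of the oocyte's cytoplasmic lattices, ranged from 638 to 1431 CPM (median 1047) in Exosc10 cKO and from 1609 to 3074 (median 2616) in dcKO. It rose by 1.20 on the log2 scale (SE 0.18, edgeR adjusted p 1.4e-06). Nlrp5, a core protein of the subcortical maternal complex, ranged from 618 to 1232 CPM (median 1022) and from 1269 to 2447 (median 2088), a rise of 1.02 (SE 0.13, adjusted p 8.5e-08). Zp3, the zona pellucida protein known as the primary sperm receptor, ranged from 403 to 830 CPM (median 611) and from 960 to 1763 (median 1513), a rise of 1.28 (SE 0.18, adjusted p 3.9e-07). In each of these the groups did not overlap, which the rule for naming required. Ldhb, the heart-type lactate dehydrogenase subunit, rose from a median of 410 CPM (206 to 519) to 1009 (818 to 1369), by 1.41 (SE 0.18, adjusted p 9.5e-08). Hjurp, the chaperone that loads the centromeric histone CENP-A, rose from a median of 526 CPM (352 to 652) to 1068 (655 to 1309), by 1.07 (SE 0.14, adjusted p 2.9e-07). Kcnh1, a voltage-gated potassium channel, rose from a median of 191 CPM (159 to 215) to 597 (524 to 663), by 1.64 (SE 0.09, adjusted p 1.3e-15).

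Whether these rises went past the control level differed among genes. Kcnh1 averaged 559 CPM in controls and 540 in Dis3 cKO, so the Exosc10 cKO libraries alone were low. Ldhb averaged 783 CPM in controls, 476 in Dis3 cKO and 385 in Exosc10 cKO, and its change with loss of Dis3 had opposite signs with EXOSC10 present (-0.72, edgeR adjusted p 0.0072) and absent (difference of the effects 2.13, adjusted p 8.3e-08). Zp3 averaged 1136 CPM in controls and 789 in Dis3 cKO. Padi6 averaged 1792 and 1252 CPM in the same groups. In dcKO tags 1 and 2 Zp3 averaged 1680 and 1203 CPM and Padi6 2805 and 1994, so the tag 2 averages lay within the control ranges of 1019 to 1399 and 1477 to 2033. Hjurp averaged 562 CPM in controls and 995 in Dis3 cKO, a rise of 0.82 (adjusted p 0.00012) beside 1.07 without EXOSC10 (difference 0.25, adjusted p 0.37).

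Of the abundant RNAs that fell, 6 were named by the same rule. Mdm4, an inhibitor of p53, ranged from 2021 to 3509 CPM (median 2455) in Exosc10 cKO and from 619 to 1854 (median 1051) in dcKO, a fall of 1.11 on the log2 scale (SE 0.15, edgeR adjusted p 4.0e-07). Brca2, a gene of homologous recombination repair, fell from a median of 1028 CPM (725 to 1288) to 319 (194 to 511), a log2 fold change of -1.63 (SE 0.13, adjusted p 2.0e-11). Jag1, a Notch ligand, fell from 1299 CPM (1126 to 1607) to 476 (276 to 965), a log2 fold change of -1.29 (SE 0.17, adjusted p 2.8e-07). Atrx, a chromatin remodeller, fell from 1021 CPM (736 to 1430) to 433 (203 to 694), a log2 fold change of -1.24 (SE 0.19, adjusted p 1.9e-06). Usp46, a deubiquitinase, fell from 986 CPM (812 to 1308) to 419 (263 to 627), a log2 fold change of -1.30 (SE 0.14, adjusted p 3.2e-09). Spry4, an inhibitor of receptor tyrosine kinase signalling, fell from 975 CPM (850 to 1499) to 403 (134 to 769), a log2 fold change of -1.35 (SE 0.24, adjusted p 2.1e-05). None of the 6 passed the threshold in Dis3 cKO against control, where their log2 fold changes lay between -0.39 (Mdm4) and 0.16 (Jag1). All 6 differed between the dcKO tags, with lower levels in tag 1, for example 351 CPM for Jag1 in tag 1 and 738 in tag 2.

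**Figure D2:**
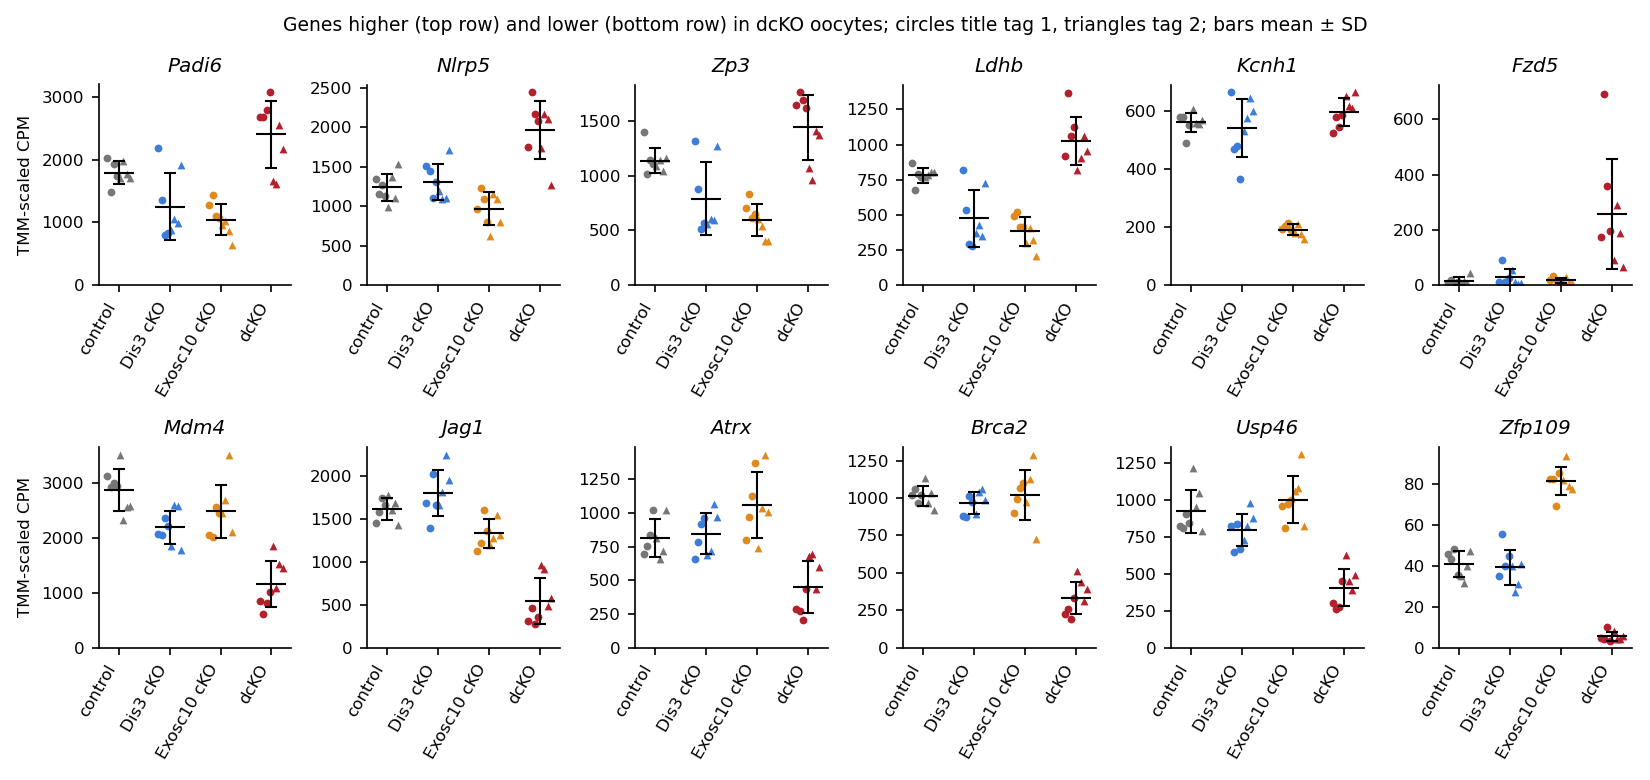
TMM-scaled CPM in each of the 32 p20 libraries for 6 genes higher (top row) and 6 genes lower (bottom row) in dcKO than in Exosc10 cKO, with circles for tag 1, triangles for tag 2 and mean ± SD bars (n = 8 per genotype). Kcnh1 is low in Exosc10 cKO alone (159 to 215 CPM), and Zfp109 is low in dcKO alone (3.38 to 10.0 CPM).

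Of the 10 largest rises named by rule, 8 were in genes with little RNA on average in the other genotypes. Hist1h3c, a replication-dependent histone H3 gene, ranged from 1.09 to 14.8 CPM (median 2.25) in Exosc10 cKO and from 24.6 to 260 (median 153) in dcKO, for a log2 difference of 5.09 (SE 0.55, edgeR adjusted p 4.8e-09). Zfp871, a zinc finger gene, went from a median of 1.74 CPM (0 to 5.52) to 91.3 (10.7 to 183), by 4.99 (SE 0.70, adjusted p 5.8e-07). Fzd5, a Wnt receptor, went from 17.3 CPM (6.42 to 33.9) to 192 (67.5 to 691), by 3.82 (SE 0.56, adjusted p 1.0e-06). Trim8, a RING-type ubiquitin ligase, went from 4.44 CPM (1.15 to 7.84) to 51.3 (28.2 to 117), by 3.69 (SE 0.36, adjusted p 5.4e-10). Dusp5, a phosphatase that acts on nuclear ERK (log2 3.72), Lrfn4, a synaptic adhesion gene (3.64), and Zfp800 (3.47) rose likewise, from Exosc10 cKO medians of 1.12, 2.16 and 9.36 CPM to 27.6, 31.6 and 107. In control and Dis3 cKO these 7 genes averaged at most 28.1 CPM, the value of Fzd5 in Dis3 cKO. Fzd5 reached 89.8 CPM in Dis3 cKO library 1_2, above the lowest dcKO value of 67.5.

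Trim25 and 2 genes with more RNA in other genotypes complete these 10, and Coro2b had the largest rise. Coro2b, a coronin that binds actin, averaged 190 CPM in Dis3 cKO, ranged from 1.35 to 3.04 (median 2.48) in Exosc10 cKO, and from 77.6 to 223 (median 123) in dcKO (log2 5.89, SE 0.68, edgeR adjusted p 1.8e-08). Its control libraries split by tag, with 1.70 to 6.03 CPM in tag 1 and 99.3 to 171 in tag 2. Pnpla3, a lipid droplet lipase, ranged from 0.0503 to 1.69 CPM in Exosc10 cKO and from 16.1 to 29.4 in dcKO (4.80, SE 0.71, adjusted p 1.3e-06). Pnpla3 in controls followed the tag, at 32.1 to 44.0 CPM in tag 1 and 0.696 to 2.14 in tag 2, and Dis3 cKO ranged from 0.109 to 1.35. Its fitted fall in Dis3 cKO against control (-4.28, adjusted p 5.1e-05) therefore joins unlike control libraries, and so does the difference between the Dis3 effects of Pnpla3 and of Coro2b. Trim25, a ubiquitin ligase of innate immune signalling, averaged 1.51, 0.135, 2.42 and 47.7 CPM in control, Dis3 cKO, Exosc10 cKO and dcKO, with a rise of 4.29 (SE 0.61, adjusted p 6.1e-07) between the last 2. Pnpla3 averaged 21.9 CPM in dcKO and under 1 in both single knockouts.

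Among the largest falls, 4 genes had RNA mainly in Exosc10 cKO. Fam124a ranged from 11.8 to 32.9 CPM (median 24.3) in Exosc10 cKO and from 0 to 0.425 in dcKO (log2 -7.77, SE 0.60, edgeR adjusted p 5.4e-11), and it was at 0 in all control libraries. F5, which encodes coagulation factor V, ranged from 8.61 to 33.5 CPM (median 20.3) and from 0 to 0.502 (-7.01, SE 0.57, adjusted p 1.6e-11). Fmo6 went from a median of 32.5 CPM to 0.0836 (-6.95) and Fmo4, a flavin-containing monooxygenase gene, from 21.6 to 0.326 (-4.97). In RefSeq GRCm38.p6, Fmo4 (chr1:162793188-162816072), Fmo6 (chr1:162916551-162937566) and F5 (chr1:164151835-164220277) are on the same chromosome. Control and Dis3 cKO averaged at most 3.97 CPM for each of these genes.

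The other large falls started from RNA present in every other genotype or in controls. Zfp109, a zinc finger gene, ranged from 68.9 to 93.5 CPM (median 81.9) in Exosc10 cKO and from 3.38 to 10.0 (median 4.32) in dcKO, a fall of 3.89 on the log2 scale (SE 0.18, edgeR adjusted p 1.4e-17), with 40.7 in controls and 39.2 in Dis3 cKO. Slc6a15, an amino acid transporter, had medians of 39.3 and 2.49 CPM (-3.96). Etl4 had 112 and 9.22 (-3.72), and Csrnp3 29.5 and 3.15 (-3.36). Gcnt2, a glycosyltransferase of the I blood group antigen, fell from 18.5 to 1.83 CPM (-3.69, SE 0.44, adjusted p 2.9e-08), where it rose in Dis3 cKO against control (1.27, adjusted p 0.029). Its controls split by tag, at 24.5 to 33.4 CPM in tag 1 and 5.82 to 15.2 in tag 2. Dis3 cKO ranged from 36.9 to 58.0, above both, so the size of that rise joins unlike control libraries. The zinc finger gene 2410141K09Rik fell with loss of Dis3 in either setting (-3.42 without EXOSC10 and -4.02 with it, difference 0.60, adjusted p 0.51).

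Long noncoding RNAs (lncRNAs) were read as a class and then by named member. Of 1012 tested, 184 were higher and 204 lower in dcKO, both smaller shares than the 24.2% and 25.0% of all genes tested. Summed, they made up 1.25% ± 0.108 of gene counts in Exosc10 cKO and 1.11% ± 0.0416 in dcKO (SD, n = 8 each), with 8 of 8 dcKO libraries below the Exosc10 cKO mean. The log2 difference was -0.16 (2-sided exact permutation test, p 0.000155, the smallest that 12870 regroupings can give; Benjamini-Hochberg adjusted p 0.00124 over 8 measures). Counted over ERCC counts in place of gene counts the difference was -0.32 with an exact p of 0.0797. In Dis3 cKO against control the log2 difference of the share was 0.0034.

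Of 8 named lncRNAs 4 rose, and all 4 rose in Dis3 cKO against control as well. The RNA 2610017A05Rik ranged from 1.86 to 4.50 CPM in Exosc10 cKO and from 18.9 to 30.6 in dcKO (2.79, SE 0.33, edgeR adjusted p 3.3e-08) and rose by 1.84 in Dis3 cKO (adjusted p 0.00064). Likewise 1110006O24Rik rose by 2.20 and 1.30, and 2810013P06Rik by 2.18 and 1.25. For none of these 3 did the effects differ past the threshold (adjusted p 0.14, 0.12 and 0.073). Gm11190 rose by 1.76 without EXOSC10 and by 0.61 with it (adjusted p 0.0497, difference 1.15, adjusted p 0.0015). Of the 4 that fell, AY512915 ranged from 131 to 177 CPM in Exosc10 cKO and from 19.9 to 48.2 in dcKO (-2.06, SE 0.14, adjusted p 2.5e-13) and fell by 2.20 on the log2 scale in Dis3 cKO. Gm17751 (-2.19), 4931428L18Rik (-1.91) and Gm34933 (-1.85) fell without EXOSC10, and their log2 fold changes with it were -0.77, -0.09 and -0.07, none past the threshold.

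Among the replication-dependent histones 24 genes rose and 0 fell. Their genes are clustered, their RNAs normally end in a stem-loop without a poly(A) tail, and their promoters are known for CCAAT and TATA elements. Of 68 genes with histone symbols in the files 42 were tested, so 18 did not pass, against 24.2% higher and 25.0% lower among all genes tested, with a median log2 fold change of 1.09 against -0.01 over all genes tested. In Dis3 cKO against control 2 were higher and 3 lower (median 0.02), where 7.37% of all genes were called. Hist1h1c, a linker histone gene, ranged from 2.62 to 13.5 CPM (median 5.72) in Exosc10 cKO and from 11.7 to 116 (median 91.9) in dcKO, a rise of 3.53 (SE 0.42, edgeR adjusted p 3.2e-08), and the groups overlapped. Hist1h2bp averaged 0.281 CPM in Exosc10 cKO, where most libraries were at 0, and 4.51 in dcKO. That is too close to 0 for a fold to be given, and its edgeR adjusted p was 0.088 without tag 1. With ERCC scaling 20 members were higher and 0 lower. Without the low-count filter 29 of 64 members were higher and 1 was lower. The list was taken by symbol, and it includes H1f0, a linker histone that is not replication-dependent, and genes with near-identical coding sequences whose reads the counting could split.

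This histone response was also read by dcKO tag. Whether the list differed between tags was not tested. Hist1h3c averaged 214 CPM in tag 1 and 90.0 in tag 2 of dcKO (edgeR adjusted p 0.23 between tags). With tag 1 dcKO oocytes alone 28 members were higher and 0 lower, and with tag 2 alone 8 were higher and 1 lower. Summed, histone RNA held 0.336% of gene counts in tag 1 and 0.176% in tag 2 of dcKO, and 0.144% and 0.156% in the tags of Exosc10 cKO. Over all 8 libraries the share was 0.256% ± 0.102 against 0.150% ± 0.0563 (SD, n = 8), a log2 difference of 0.74 with 6 of 8 dcKO libraries above the Exosc10 cKO mean (exact permutation p 0.0311, adjusted p 0.0829).

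The promoters of the 3 histone genes with the largest rises at 20 CPM or more in dcKO are shown because the list had the highest share of members that rose. They are the 120 bases before the start in RefSeq GRCm38.p6 (chr13:23745522-23745641 minus strand, chr13:23738687-23738806 plus strand and chr13:22043078-22043197 plus strand), with CCAAT on either strand in capitals:
Hist1h3c: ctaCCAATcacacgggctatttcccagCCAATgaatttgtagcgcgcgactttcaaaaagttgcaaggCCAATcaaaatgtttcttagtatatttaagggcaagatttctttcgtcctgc
Hist1h1c: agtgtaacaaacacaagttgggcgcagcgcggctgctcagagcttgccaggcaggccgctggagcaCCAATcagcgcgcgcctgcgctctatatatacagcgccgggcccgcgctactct
Hist1h2bj: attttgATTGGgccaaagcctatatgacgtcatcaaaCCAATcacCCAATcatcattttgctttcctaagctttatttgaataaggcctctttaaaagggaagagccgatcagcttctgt
Of the 24 genes that rose 21 matched a promoter in the table, and CCAAT was in 15 of these (71.4%), against 29 of the 38 tested histone genes that matched (76.3%) and 22.1% of 27025 promoters of all genes. TATAAA, searched on both strands, was in 6 of the 21 (28.6%), 12 of the 38 (31.6%) and 6.76% of all. The positions of the motifs were not compared. Hist1h2bj, an H2B gene, averaged 15.2 CPM in Exosc10 cKO and 50.3 in dcKO (log2 1.73).

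For 5 other RNA classes the adjusted p was above 0.05. Pseudogenes held 0.313% ± 0.0195 of gene counts in Exosc10 cKO and 0.338% ± 0.0183 in dcKO (log2 0.11, exact permutation p 0.0253, adjusted p 0.0829). By gene, 83 of 585 pseudogenes tested were higher and 112 lower (median log2 fold change -0.22), beside 24.2% and 25.0% of all genes tested. For snoRNAs the log2 difference was 0.12 (exact p 0.566, adjusted 0.755), for snRNA and other small RNA 0.054 (exact p 0.692, adjusted 0.791), for mitochondrially encoded RNA -0.11 (exact p 0.566, adjusted 0.755) and for cytosolic ribosomal protein RNA 0.20 (exact p 0.121, adjusted 0.241). The last was 0.29 (unadjusted exact p 0.017) without Exosc10 cKO library 2_4 and 0.41 (unadjusted exact p 0.020) without tag 2 dcKO oocytes. Mitochondrially encoded RNA was at -0.27 (unadjusted exact p 0.042) over ERCC counts and at 0.016 (unadjusted exact p 0.88) without Exosc10 cKO library 2_4. The class of snRNA and other small RNA held at most 0.0255% of counts in any library of these groups, and snoRNAs at most 0.00493%. These small shares limit what could be detected in either class. Genes with a count numbered 20202 ± 557 in dcKO and 20139 ± 1040 in Exosc10 cKO (log2 0.0057, exact p 0.849, adjusted 0.849). At equal depth they numbered 19584 ± 407 and 18750 ± 772, with 8 of 8 dcKO libraries above the Exosc10 cKO mean (log2 0.064, exact p 0.0179).

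RNA amount was read against the ERCC RNAs. Gene counts per ERCC count were 1086 ± 232 in dcKO and 1229 ± 284 in Exosc10 cKO (log2 -0.16, exact permutation p 0.425), and without Exosc10 cKO library 2_4, which stood at 582, the difference was -0.31 with p 0.030. Scaled to ERCC counts the comparison called 5015 genes, of which 5006 were also called with TMM scaling.

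The exosome's own genes were read next. Of 4 ribonuclease genes, Dis3l, the cytoplasmic relative of Dis3, fell from a mean of 267 CPM to 142 (log2 -0.91, SE 0.11, edgeR adjusted p 6.7e-08), and it fell in Dis3 cKO too (-0.73, adjusted p 1.8e-05). Of 8 core subunits tested Exosc2 rose (0.94) and Exosc8 fell (-0.35, which missed the threshold without tag 1 dcKO oocytes at adjusted p 0.081); the other 6 did not pass. Among 21 cofactors and adaptors 9 rose and 6 fell, against 24.2% and 25.0% of all genes tested. Skiv2l, the helicase of the cytoplasmic SKI complex, rose from a mean of 15.7 CPM to 45.2 (1.53). Ttc37, its scaffold, fell from a median of 362 CPM (304 to 433) to 126 (53.1 to 198), a fall of 1.52 (SE 0.14, adjusted p 3.3e-10). Mtrex, the nuclear helicase that feeds the exosome, fell from a median of 90.3 CPM to 52.2 (-0.80).

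Oocyte genes were split by role. Of 15 oocyte transcription factors tested 4 rose and 7 fell, beside 24.2% higher and 25.0% lower among all genes tested, and with ERCC scaling 1 rose and 3 fell. Obox2, an oocyte-specific homeobox gene, fell from a median of 614 CPM (521 to 876) to 238 (172 to 293), for a log2 difference of -1.42 (SE 0.11, edgeR adjusted p 1.2e-11), and Sohlh2 rose by 0.88, with an adjusted p of 0.12 without dcKO library 1_2. Of 15 secreted and surface proteins, beside the same shares, 5 rose and 7 fell. The 3 zona genes of the list all rose, Zp2 by 0.97 from a median of 1096 CPM (832 to 1447) to 2144 (1345 to 3014) and Zp1 by 0.77 from 415 (289 to 522) to 683 (508 to 843). Astl, the ovastacin protease that cleaves ZP2, rose by 1.09 from 194 CPM (73.1 to 289) to 396 (356 to 540). Gdf9 and Bmp15 encode secreted growth factors that act on granulosa cells. Gdf9 differed by 0.07 (SE 0.09, adjusted p 0.52), and Bmp15 fell by 0.40 on the log2 scale (adjusted p 0.00013).

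Of 22 maternal effect genes 7 rose and 6 fell, beside 24.2% and 25.0% of all genes tested. Beside Padi6 and Nlrp5, Nlrp9c fell by 1.06 on the log2 scale from a median of 269 CPM to 128, Zar1l fell by 0.96, and Zar1, an RNA-binding protein of stored maternal RNA, differed by 0.21 (edgeR adjusted p 0.11). Of 13 mRNA storage genes 3 rose and 5 fell, beside the same shares, and with ERCC scaling 0 rose and 2 fell. Ddx6, a helicase of P-bodies, rose by 0.63, Dazl by 0.46, and Igf2bp2 fell by 0.54 on the log2 scale. Without tag 1 dcKO oocytes Dazl was at 0.26 (adjusted p 0.054) and Igf2bp2 at -0.31 (adjusted p 0.058).

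Of 25 genes of deadenylation, decapping and uridylation tested 7 rose and 12 fell, beside 24.2% higher and 25.0% lower among all genes tested. With ERCC scaling 3 rose and 9 fell, and with tag 2 dcKO oocytes alone 3 rose and 12 fell. Btg4, the adaptor that brings CCR4-NOT to maternal mRNA, fell from a median of 1171 CPM (982 to 1695) to 691 (543 to 853), for a log2 difference of -0.82 (SE 0.10, edgeR adjusted p 6.0e-08). Cnot7, a catalytic deadenylase, fell from 597 CPM (462 to 678) to 315 (260 to 392), a log2 fold change of -0.87 (SE 0.14, adjusted p 3.4e-06). Dcp2, the decapping enzyme, fell from 321 CPM (229 to 364) to 138 (106 to 253), a log2 fold change of -0.94. Edc3, a decapping enhancer, rose from a mean of 4.65 CPM to 12.3 (1.40). Tut4, a uridylyltransferase, was higher by 1.58 over all libraries (adjusted p 0.026) and at 0.00 without tag 1 dcKO oocytes; tag 2 averaged 3.69 CPM, and Exosc10 cKO 3.62.

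Of 26 genes of meiotic arrest and resumption 5 rose and 14 fell (median -0.32), beside 24.2% higher and 25.0% lower among all genes tested, and with ERCC scaling 1 rose and 10 fell. Ccnb3, a cyclin that acts at the meiotic metaphase to anaphase step, went from a mean of 4.86 CPM to 0.870 (-2.50, SE 0.41, edgeR adjusted p 6.2e-06). Gpr12, a receptor that can keep cAMP high, fell from 2.88 CPM to 0.943 (-1.59). In the list of H3K27 methylation genes 9 of 14 tested fell and 0 rose (median -0.33). In Dis3 cKO against control, where 7.37% of all genes were called, 0 of 14 passed. The Polycomb subunits Suz12 and Eed fell from medians of 726 CPM (649 to 972) and 144 (121 to 179) to 446 (329 to 580) and 106 (75.1 to 120), with log2 fold changes of -0.78 (adjusted p 8.6e-07) and -0.50 (adjusted p 8.6e-05). The methyltransferase Ezh2 fell from 376 CPM (336 to 453) to 289 (166 to 382), with overlap between groups (-0.45, adjusted p 0.002), and it was at -0.18 (adjusted p 0.15) without tag 1. Kdm6b, a demethylase of the same mark, fell as well (-0.84, SE 0.12, adjusted p 6.6e-07). With tag 2 dcKO oocytes alone 6 members fell, with tag 1 alone 8, and with ERCC scaling 4.

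The list of DNA methylation and H3K4 or H3K36 writers had 5 of 21 higher and 6 lower, near the 24.2% and 25.0% of all genes tested. Tet2, which oxidises 5-methylcytosine, ranged from 20.3 to 33.8 CPM (median 22.3) in Exosc10 cKO and from 57.1 to 148 (median 97.4) in dcKO, a rise of 1.97 (SE 0.15, edgeR adjusted p 6.0e-12). Uhrf2, a ubiquitin ligase that binds modified cytosine, rose by 1.84, and Kdm1b, the H3K4 demethylase needed for maternal imprints, rose by 0.77 from 398 CPM (259 to 459) to 624 (511 to 853).

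RNA polymerase II (Pol II) subunits and elongation factors, 37 genes, had 12 higher and 13 lower, beside 24.2% higher and 25.0% lower among all genes tested. Hexim1, which holds the elongation kinase P-TEFb inactive, rose by 2.26 (SE 0.55, edgeR adjusted p 0.00091), from a median of 2.30 CPM (1.02 to 4.33) to 9.10 (2.01 to 26.4), and was at 0.81 (adjusted p 0.35) without tag 1. Cdk9, the kinase of P-TEFb, rose from 15.7 CPM (10.1 to 20.5) to 43.1 (18.5 to 75.0), by 1.58 (SE 0.22, adjusted p 7.1e-07). Cdk13, another Pol II kinase, rose from 119 CPM (67.0 to 176) to 347 (256 to 422), without overlap (edgeR adjusted p 1.1e-10). Among 30 genes of 3′ end processing and Integrator, beside the same shares, 13 rose and 10 fell, with ERCC scaling 6 and 7, and with tag 2 dcKO oocytes alone 8 and 10. Clp1, a cleavage factor II subunit, rose from 4.59 CPM (3.18 to 6.80) to 24.4 (8.54 to 68.6), by 2.61 (SE 0.33, adjusted p 1.2e-07). Cstf3, a cleavage stimulation factor subunit, rose from 30.3 CPM (27.1 to 46.3) to 96.2 (42.8 to 180), by 1.73 (SE 0.18, adjusted p 3.1e-09). Of 31 splicing genes, beside these shares too, 6 rose and 10 fell, with ERCC scaling 3 and 4, and with tag 2 alone 2 and 7. Srsf11 was at 0.94 and Snrpb at 1.07, the latter at 0.72 (edgeR adjusted p 0.089) without tag 1.

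Of genes of the DNA damage checkpoint and p53 family 3 of 20 rose and 7 fell, beside 24.2% higher and 25.0% lower among all genes tested. Brca1 fell from a median of 217 CPM (157 to 280) to 96.4 (44.1 to 157), for a log2 difference of -1.20 (SE 0.14, edgeR adjusted p 2.4e-08), and Chek2, the kinase known to remove damaged oocytes, differed by 0.31 (adjusted p 0.43). The KIT, PI3K and mTOR list had, beside the same shares, 8 of 20 higher and 9 lower, and 1 higher and 4 lower with ERCC scaling. Pik3r1, a regulatory subunit of PI3K, went from 504 CPM (381 to 577) to 207 (113 to 436), a log2 fold change of -0.99 (adjusted p 6.0e-05), and Eif4ebp1, a translation repressor under mTOR, rose by 1.57 from 0.581 to 1.74 CPM, at adjusted p 0.18 without tag 2.

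Lists of housekeeping and regulatory genes are read against the 24.2% higher and 25.0% lower among all genes tested. Of 78 cytosolic ribosomal protein genes tested 11 rose and 5 fell, among them Rpl10l, an intronless paralogue of Rpl10 (2.29), and Rpsa (-3.01), both under 15 CPM on average and with copies elsewhere in the genome; with tag 1 alone 17 rose and 5 fell, and with tag 2 alone 2 rose and 5 fell. Of 76 nuclear oxidative phosphorylation genes 20 rose and 6 fell, with Uqcrc1 at 1.63 and Ndufa13 at 1.28, and with ERCC scaling 9 rose and 5 fell; with tag 1 alone 24 rose and 4 fell, and with tag 2 alone 6 rose and 10 fell. Proteasome subunits had 7 of 35 higher and 11 lower, with Psmd13 at 1.69 and Psmb5 at 1.10 (adjusted p 0.14 without tag 1). Of 17 mitochondrially encoded genes tested 0 rose and 3 fell, among them mt-Nd4 (-0.58) and mt-Cytb (-0.49, adjusted p 0.14 without Exosc10 cKO library 2_4). Of 16 snoRNA genes tested 0 rose and 2 fell, Snord118 and Scarna6, each averaging under 2 CPM in both groups, and of 12 snoRNA host genes 4 rose, among them Snhg8 (2.83) and Snhg3 (1.86, above an adjusted p of 0.05 without any 1 of 9 libraries). Rab GTPases had 15 of 45 higher and 12 lower, with Rab31 at 2.56 and Rab36 at 2.29, the latter at 0.88 (adjusted p 0.23) without tag 1. With tag 2 alone 9 were higher and 11 lower. Rab9b, singled out after its values were seen, averaged 0.456 CPM in Exosc10 cKO and was at 0 in every dcKO library (edgeR adjusted p 0.00059). Genes with Zfp symbols had 115 of 307 higher and 68 lower (median 0.12). Zfp324 averaged 0.0665 CPM in Exosc10 cKO and 2.24 in dcKO, too close to 0 in Exosc10 cKO for a fold to be given.

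**Figure D3:**
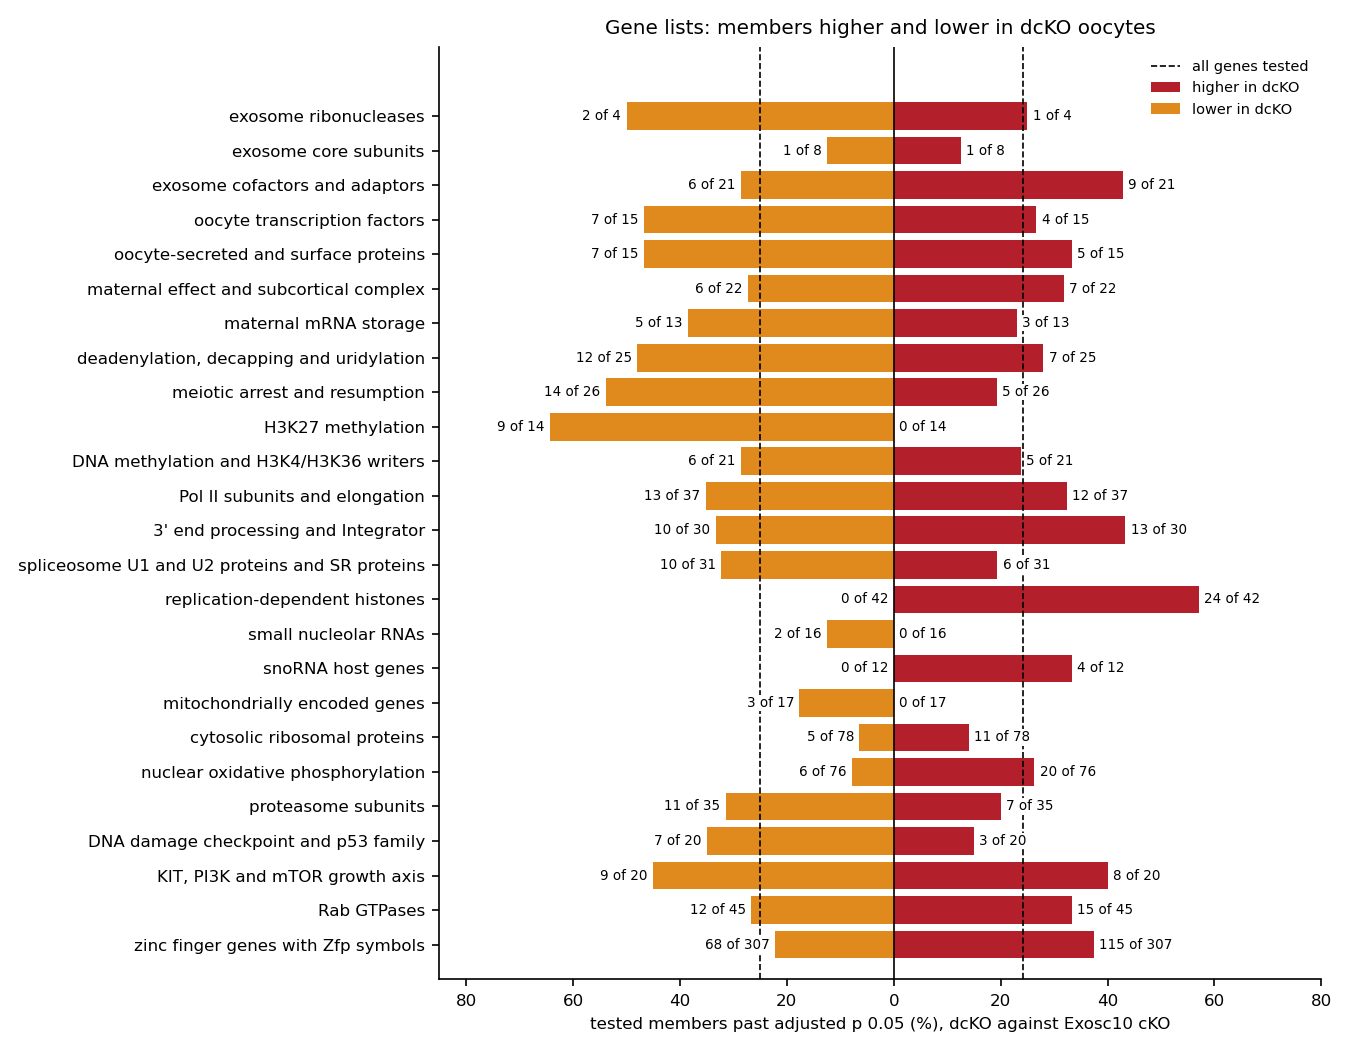
Percent of tested members of each gene list that were higher (right) or lower (left) in dcKO than in Exosc10 cKO at an edgeR adjusted p under 0.05, with the counts printed and dashed lines at the 24.2% and 25.0% of all genes tested. The histone list lies on the right alone (24 of 42) and the H3K27 methylation list on the left alone (9 of 14).

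Genomic span ordered the differences, a measure chosen after the data were seen. Protein-coding genes were put in 10 equal groups by the span of the gene in RefSeq GRCm38.p6. In the shortest (222 to 4680 bp) the median log2 fold change was 0.26, with 32.3% of 1280 genes higher and 10.9% lower. In the longest (at least 139517 bp) the median was -0.42, with 11.2% higher and 46.6% lower. The medians were lower at each step from the shortest to the longest group. In Dis3 cKO against control the medians lay between -0.01 and 0.02 in all 10 groups. In Exosc10 cKO against control, which shares the Exosc10 cKO libraries, the median was 0.07 in the shortest group and -0.08 in the longest.

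A score per library, the median deviation of the longest group minus that of the shortest in log2(CPM + 1), ranged from -0.11 to 0.39 (median 0.13) in Exosc10 cKO and from -0.89 to -0.19 (median -0.53) in dcKO, without overlap. The mean difference was -0.62 (exact permutation p 0.000155, the smallest possible here), and in Dis3 cKO against control it was 0.00. The score averaged -0.71 in tag 1 and -0.33 in tag 2 of dcKO, and 0.030 and 0.17 in the tags of Exosc10 cKO. The difference was -0.43 (exact p 0.0040) without tag 1 dcKO oocytes and -0.81 (exact p 0.0020) without tag 2. The part of depth in this score was not tested.

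**Figure D4:**
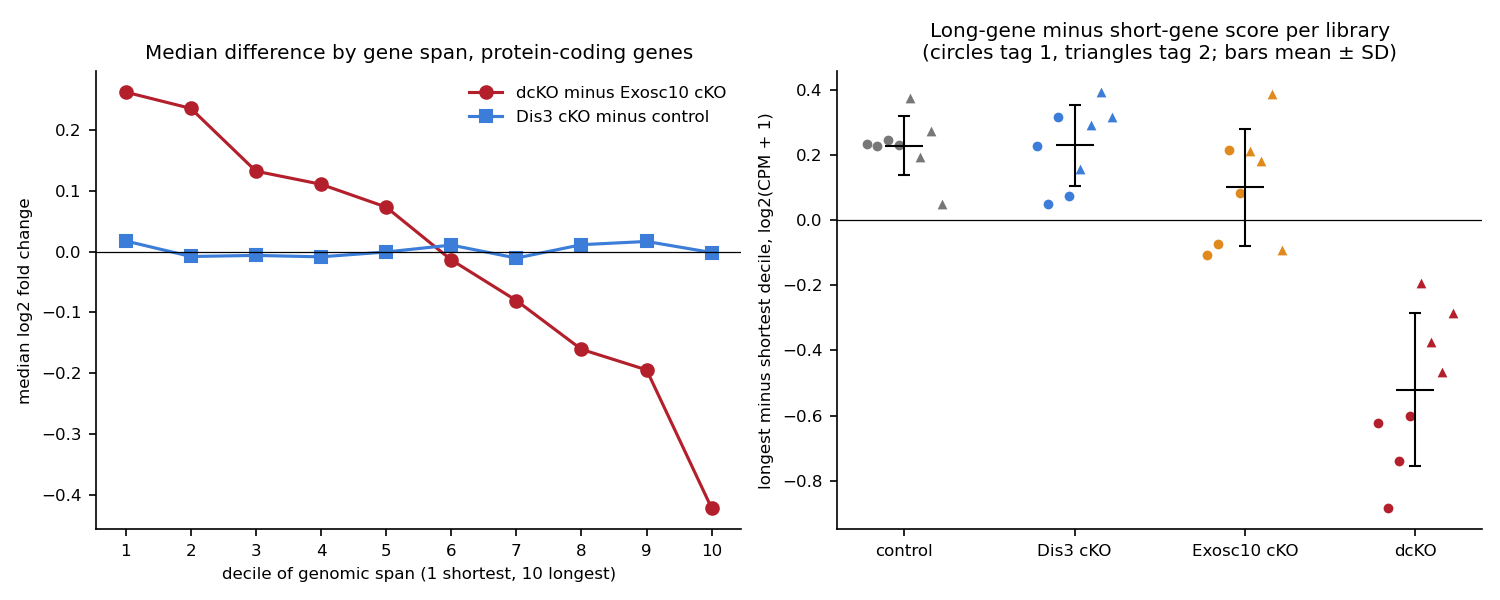
Left, the median log2 fold change of protein-coding genes in 10 groups of rising genomic span, for dcKO minus Exosc10 cKO (circles) and Dis3 cKO minus control (squares). Right, the long-gene minus short-gene score of each library by genotype, with circles for tag 1, triangles for tag 2 and mean ± SD bars (n = 8); every dcKO library is below every other library.

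The effect of DIS3 loss without EXOSC10 was then tested against its effect with EXOSC10, as an interaction over the 4 groups. The difference passed the edgeR threshold for 4984 genes (31.4%), 2336 more positive and 2648 more negative without EXOSC10, and for 1307 (587 and 720) when counts were summed per tag. It passed for 55.9% of the genes that differed between dcKO and Exosc10 cKO. The pair of Dis3 comparisons shares no library. Both called 676 genes, 57.7% of those called in Dis3 cKO and 8.66% of those called in dcKO against Exosc10 cKO, where 49.2% and 7.37% of all genes tested were called in dcKO against Exosc10 cKO and in Dis3 cKO against control. Of these 676, 471 (69.7%) had the same sign. Over 8331 genes averaging at least 10 CPM the log2 fold changes had Pearson's r 0.207, a description across genes, which are not independent. With ERCC scaling the interaction count was 2155 (1618 positive and 537 negative), and the count for Dis3 cKO against control was 968 (124 higher and 844 lower).

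The genes with the largest interaction were mostly ones whose level differed between control and Dis3 cKO. Prr15l averaged 27.9 CPM in controls, 0.0641 in Dis3 cKO, 8.21 in Exosc10 cKO and 24.6 in dcKO. Gm30198 and Adra1b, an adrenergic receptor gene, were at 0 in all 8 Dis3 cKO libraries. That is at least 741-fold and 331-fold below control, taking a floor of 3 counts over the group. They averaged 12.3 and 18.5 CPM in dcKO. In Exosc10 cKO they ranged from 11.7 to 22.5 and from 8.24 to 32.6 CPM, so the dcKO averages lay within the Exosc10 cKO ranges. Pxdn, a peroxidase of basement membranes, averaged 294 CPM in Dis3 cKO alone and at most 0.615 in the other 3 genotypes. Mt1, a metallothionein, averaged 0.353 CPM in controls and 71.6 to 85.9 in the 3 mutant genotypes. Rhbdf1 averaged 20.2 CPM in controls, and in dcKO 18.7 in tag 1 and 0.290 in tag 2, with an adjusted p of 2.9e-05 between the tags.

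**Figure D5:**
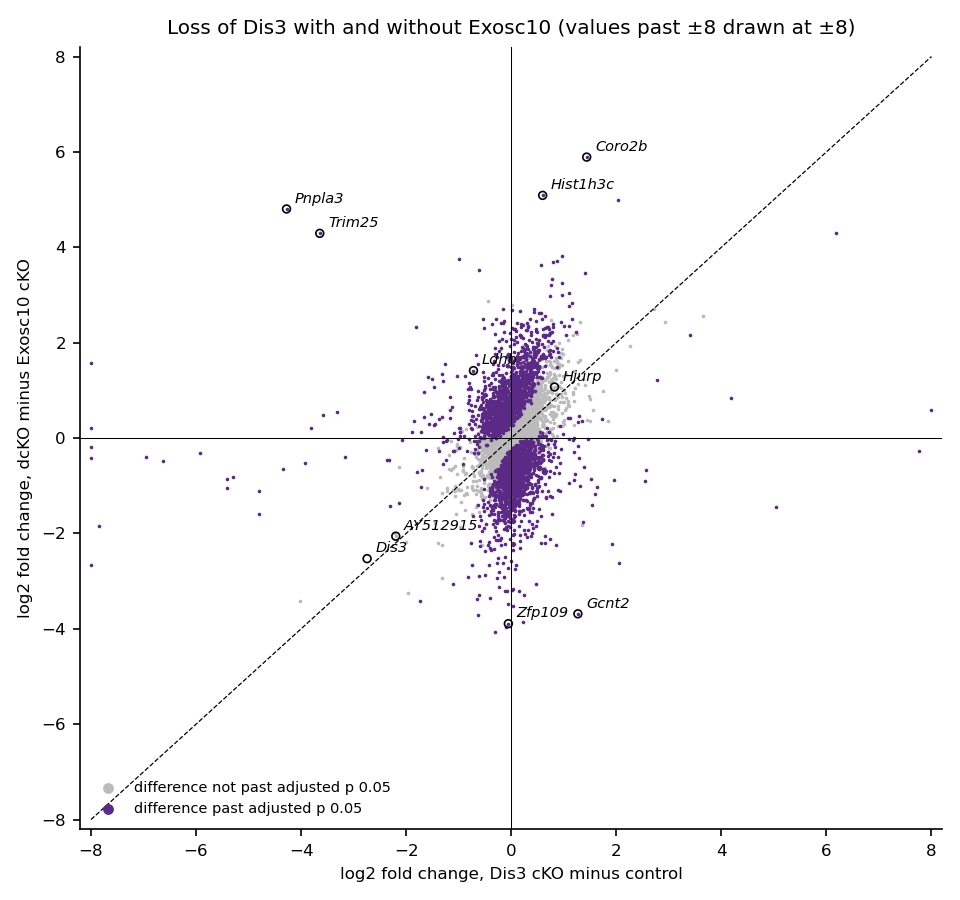
Log2 fold change of genes averaging at least 10 CPM for Dis3 cKO minus control (horizontal) and dcKO minus Exosc10 cKO (vertical); genes whose effects differ past an edgeR adjusted p of 0.05 are dark, named genes are circled, the dashed line marks equal effects, and values past ±8 are drawn at ±8. AY512915 lies near that line, and Pnpla3 and Trim25 lie on opposite sides of 0 in the 2 comparisons.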

How the data were processed

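RiboMinus RNA-seq libraries of single p20 oocytes were read as the authors' deposited counts per gene and per ERCC RNA, whole numbers that were not normalized. Per the submitters' processing notes, the tools included cutadapt 2.5, STAR 2.7.2a, SAMtools 1.9 and HTSeq 0.9.1 with build mm10; which tool made which file, and whether counting used strand, are not given in the sources used here. Gene IDs were matched to symbols and RefSeq GRCm38.p6 (99.38% had a symbol).

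All 32 libraries entered 1 edgeR 4.0.16 quasi-likelihood fit (R 4.3.3, TMM scaling, filterByExpr by group, Benjamini-Hochberg over 15882 genes, threshold 0.05), with contrasts for dcKO against Exosc10 cKO, Dis3 cKO against control, and their difference. The fit was tested on simulated data. Shares and ratios per library were compared by 2-sided exact permutation tests. Named genes were, by rule, the largest folds without overlap between groups at 20 CPM or more, abundant genes, lncRNAs, the largest interactions, and up to 2 per list with a few described members; Dis3l and Hist1h2bj were added for the exosome and promoter accounts. Members and lists were chosen with earlier results of these data known. Depth, tag and gene span alternatives were added after seeing the data. No 2 libraries of the same genotype agreed within counting noise. Of 108 named genes 41 overlap another RefSeq gene, so their counts may hold reads of both.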

Additional observations from a re-analysis of the deposited data

Results flagged for a closer look

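A single library stood apart from the other 7 of its group, by Dixon's 95% limit, in 27 of 236 groups examined; chance gives about 1 in 20. In Exosc10 cKO library 2_4 the gene to ERCC count ratio was 582 (nearest 1114), the lncRNA share was 1.49% (nearest 1.3%) and the mitochondrially encoded RNA share was 1.62% (nearest 0.949%). There too the cytosolic ribosomal protein RNA share was 0.159% (nearest 0.11%), 4931428L18Rik was at 96.2 CPM (nearest other library 60.6) and Obox2 was at 876 CPM (nearest other library 674). Further, in that library Zar1l was at 186 CPM (nearest other library 121), Snord118 was at 2.74 CPM (nearest other library 1.02) and mt-Nd4 was at 765 CPM (nearest other library 435). Last, in that library mt-Cytb was at 1942 CPM (nearest other library 1146). In dcKO library 2_1 21422 genes were detected (nearest 20478), Fmo4 was at 2.75 CPM (nearest other library 1.17) and Gpr12 was at 3.05 CPM (nearest other library 1.3). In dcKO library 1_2 Fzd5 was at 691 CPM (nearest other library 357), Trim8 was at 117 CPM (nearest other library 64.7) and Lrfn4 was at 97.5 CPM (nearest other library 39). In dcKO library 1_2 Prr15l was at 38.5 CPM (nearest other library 26.4), Uhrf2 was at 98 CPM (nearest other library 50.6) and Rpsa was at 1.84 CPM (nearest other library 0.585). In Exosc10 cKO library 1_2 Lrfn4 was at 8.3 CPM (nearest other library 3.68), Exosc2 was at 9.45 CPM (nearest other library 5.58) and Zfp324 was at 0.346 CPM (nearest other library 0.145). In dcKO library 1_1 2410141K09Rik was at 12.2 CPM (nearest other library 5.47). In Exosc10 cKO library 2_3 2410141K09Rik was at 57.7 CPM (nearest other library 40.3), Mdm4 was at 3509 CPM (nearest other library 2687) and Cstf3 was at 46.3 CPM (nearest other library 32.7). In Exosc10 cKO library 2_1 Gm34933 was at 57.7 CPM (nearest other library 39.6). 

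The effect of losing Dis3 differed between oocytes without and with Exosc10 for 80 of the 108 named genes, by the interaction in edgeR at an adjusted p under 0.05. The share among all tested genes was 31.4%, and part of the named genes were chosen for a large interaction or a large fold, so the count describes that choice. The values are log2 fold changes without Exosc10 minus with it. Those of Gm30198, Adra1b and Fam124a, which were at 0 in every library of 1 group, depend on the prior count of the fit and are neither sizes nor bounds. That of Prr15l rests on few counts, as its Dis3 cKO libraries were at 0 to 0.438 CPM. For Pnpla3, Coro2b and Gcnt2 the control libraries split by tag. For Rhbdf1 the dcKO libraries did, at 16.1 to 23.3 CPM in tag 1 and 0 to 0.703 in tag 2. Among those more positive without Exosc10 the difference was 11.04 for Gm30198, 10.43 for Prr15l, 10.39 for Rhbdf1, 10.11 for Adra1b, 9.08 for Pnpla3, 7.94 for Trim25 and 4.49 for Hist1h3c. Next came 4.46 for Coro2b, 4.14 for Hist1h1c, 3.06 for Lrfn4, 2.95 for Zfp871, 2.93 for Snhg8, 2.90 for Trim8 and 2.86 for Fzd5. Then followed 2.13 for Ldhb, 2.08 for Hexim1, 2.07 for Zfp800, 2.05 for Clp1, 1.91 for Rab31, 1.81 for Cstf3 and 1.81 for Zp3. The difference was 1.78 for Skiv2l, 1.77 for Psmd13, 1.72 for Padi6, 1.70 for Tet2, 1.70 for Kcnh1, 1.54 for Cdk9 and 1.41 for Ndufa13. It was 1.37 for Psmb5, 1.33 for Cdk13, 1.31 for Snrpb, 1.31 for Uqcrc1, 1.30 for Astl, 1.26 for Zp2 and 1.15 for Gm11190. Smaller ones were 1.05 for Edc3, 1.01 for Kdm1b, 0.97 for Zp1, 0.94 for Nlrp5, 0.65 for Srsf11, 0.57 for Zar1 and 0.48 for Dazl. Among those more negative without Exosc10 the difference was -10.63 for Fam124a, -10.29 for Pxdn, -8.03 for Mt1, -6.83 for F5, -5.88 for Fmo6, -4.95 for Gcnt2 and -4.73 for Fmo4. After these it was -3.85 for Slc6a15, -3.84 for Zfp109, -3.08 for Etl4, -2.72 for Csrnp3, -2.63 for Ccnb3, -2.48 for Snord118 and -1.82 for 4931428L18Rik. Further values were -1.78 for Gm34933, -1.55 for Brca2, -1.53 for Ttc37, -1.45 for Jag1, -1.44 for Obox2, -1.42 for Gm17751 and -1.29 for Atrx. In turn it was -1.22 for Spry4, -1.09 for Usp46, -1.06 for Dcp2, -1.06 for Brca1, -1.02 for Pik3r1, -0.86 for Mtrex and -0.82 for Suz12. Nearer to 0 it was -0.77 for Btg4, -0.72 for Mdm4, -0.70 for mt-Nd4, -0.65 for Nlrp9c, -0.64 for Cnot7, -0.64 for Kdm6b and -0.64 for Zar1l. The rest were -0.63 for Igf2bp2, -0.52 for Ezh2 and -0.43 for Bmp15.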

How the results depend on the processing

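The 7809 genes that differed between dcKO and Exosc10 cKO became 5015 with ERCC scaling and 5559 with counts summed per tag. The count was 3489 at a fold of at least 2. It was 3329 for dcKO tag 2 against Exosc10 cKO tag 1, 5137 against tag 2, and 7342 to 8089 with 1 library left out. The 4984 interaction genes became 2155 with ERCC scaling, 1307 with counts summed per tag, 3218 without dcKO tag 1 and 4584 to 5447 with 1 library left out; the 1171 genes of Dis3 cKO against control became 286 when summed. Same-numbered oocytes correlated at -0.0367 to 0.157, so the numbers were not taken to pair them, and a replicate block gave 7757 genes, 4932 interaction genes and 1143 for Dis3 cKO.

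Without dcKO tag 1 the log2 differences were -0.57 for Rhbdf1, 0.23 for Adra1b, -0.0028 for Tut4, 0.045 for the ERCC ratio, -0.19 for snoRNA, -0.044 for snRNA and 0.24 for histones. Over ERCC counts they were -0.32 for lncRNA, -0.052 for pseudogenes, -0.041 for snoRNA, -0.11 for snRNA and -0.27 for mitochondrial RNA. Without dcKO tag 2 they were 0.060 for pseudogenes, 0.052 for mitochondrial RNA and 0.41 for ribosomal proteins. The histone median gave 0.84, and genes detected at equal depth 0.064. With 1 library left out the ranges were -0.31 (without Exosc10 cKO 2_4) to -0.082 for the ERCC ratio, 0.63 to 0.88 for histones, -0.16 to 0.016 for mitochondrial RNA, 0.16 to 0.29 for ribosomal proteins and -0.0079 to 0.025 for genes detected. For snoRNA the range with 1 library left out was 0.025 to 0.21, and for snRNA it was 0.0078 to 0.13. The causes were not tested. Of 2908 values of named genes under alternatives 2837 kept direction and side of the threshold, 61 lost the call, 7 gained it and 3 reversed.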
